A study of Mus musculus with 12 samples.

Results

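Heat shock and chaperone genes were followed over 1 circadian day in the urinary bladder of the mouse. The list held 36 gene names: the Hsp70, Hsp110, Hsp90, Hsp40 and small heat shock protein families, the chaperonin subunits Cct2 and Cct3, cochaperones, and the transcription factors Hsf1 and Hsf2. Because Hsp110 is the older symbol of Hsph1, the 36 names stand for 35 genes, of 27837 gene names on the array. A probe under one of these names was present for 32 genes, and 31 of them could be tested. The scanner marks a spot as well above background where it is clearly brighter than its surroundings, and all 31 carried that mark on each of the 12 arrays. The brightest Hsf2 probe was well above background on 3 of 12 arrays, with levels between -6.85 and -5.93, and the gene was not tested. A dimmer Hsf2 probe, with a mean level of -6.63, was so marked on at least 4 arrays. Its fitted 24 h wave was 2.38-fold at CT9.39 (limma unadjusted p = 0.144). No probe was named Hspa1b, Hspa9 or Dnajb2. The list was assembled as cytosolic, but Hspd1 and Hspe1, the chaperonin and cochaperonin of mitochondria, belong to that organelle and are given apart.

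Chaperones bind unfolded or partly folded proteins. Hsp70 proteins take up clients delivered by Hsp40 partners and release them with the help of Hsp110 exchange factors, Hsp90 with its cochaperones finishes the folding of kinases and steroid receptors, and small heat shock proteins hold unfolded proteins in a soluble state. Many of the genes are driven by heat shock factor 1 (HSF1), which binds repeats of the bases GAA and TTC in their promoters. In mouse liver, HSF1 is known to bind DNA in a daily rhythm, and several heat shock transcripts are highest in the night, when body temperature is highest. The bladder is a smooth muscle organ lined by urothelium, and small heat shock proteins such as Hspb6, Hspb8 and Cryab are abundant in muscle.

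Total RNA of whole bladder from wild-type C57BL/6 female mice, 10 weeks old, was hybridised to Agilent 1-colour arrays labelled with Cy3. The animals were accustomed for 2 weeks to a cycle with 12 h each of light and dark, and then held in constant darkness. Tissue was taken every 4 h of circadian time (CT), at CT0, CT4, CT8, CT12, CT16 and CT20, and each time had 2 arrays. All groups shared genotype, strain, sex and age, and no untreated or light-exposed group was analysed here. CT16 is given by the labels of its arrays and is missing from the series' own list of times. The labels do not say that each array held a separate mouse, so the p-values measure the spread between arrays, which may be technical. In whole tissue, fewer cells of a type and less RNA per cell cannot be told apart.

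Levels are log2 processed intensities minus the 75th percentile of the same array, so that a level of 0 equals that percentile. Between 64.2% and 70.2% of spots per array were well above background, and the 75th percentile lay between 844 and 984 intensity units, lowest in CT8 replicate 1. CT0 and CT4 shared 1 slide, CT8 and CT12 another, and CT16 and CT20 the third. Differences between CT0 and CT4, CT8 and CT12, or CT16 and CT20 were therefore within a slide, and for all other pairs of times slide and time cannot be told apart. The clock genes Arntl, Nr1d1, Per2 and Dbp all passed the 24 h test (limma, 4 of 4, adjusted p = 1.06e-05 to 0.00216). Among tissue markers, the summed level of 12 smooth muscle genes was 11.3 to 11.7 on every array, and that of 12 urothelium genes 9.47 to 10.1. Hepatocyte genes (11 tested, 3.90 to 6.00) and adipocyte genes (8 tested, 7.94 to 9.62) differed more between arrays of 1 time, and their part in the results below was not tested.

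No heat shock or chaperone gene passed the threshold of 0.05 on the adjusted p (Benjamini-Hochberg over 18557 genes) in any of the comparisons. For a wave of 24 h, limma called 0 of 31, with 0.62% of all genes called, and 8 of 31 had an unadjusted p under 0.05, beside 15.6% of all genes. For any difference between the 6 times, 0 of 31 passed and 0.0754% of all genes did. There, 14 of 31 had an unadjusted p under 0.05, beside 19.1% of all genes. The fitted waves were shallow: the peak stood 1.03 to 1.88 times over the trough, with a median of 1.22-fold, against 1.18-fold over all genes tested. No tested member had a wave of 2-fold or more (4.51% of all genes), and 3, Hspb6, Hspb7 and Hsph1, had one of 1.5-fold or more (14.7% of all genes). Simulated 24 h waves with an amplitude of 0.3 on the log2 scale, less deep than those 3 and deeper than the other 28, were called in 38.8% of cases.

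The highest levels of the list gathered at one time. In 24 of 31 genes the mean of the 2 arrays was highest at CT16, in the middle of the subjective night, while 25.4% of all genes tested were highest then. CT20 held the highest mean of 3 members, CT8 of 2, CT4 and CT12 of 1 each, and CT0 of none. The lowest means were more spread, with 10 members lowest at CT8 (16.9% of all genes) and 9 at CT4 (15.9%). Another 5 were lowest at CT12 (21.9%), 4 at CT20 (13.2%), 2 at CT16 (19.7%) and 1 at CT0 (12.4%). Fitted peaks lay between CT12 and CT24 in 26 of 31, beside 54.1% of all genes. Of these, 15 lay from CT12 to CT18 (24.7% of all genes) and 11 from CT18 to CT24 (29.4% of all genes). The count at CT16 depended on the scaling: 16 of 31 were highest at CT16 after quantile scaling (23.6% of all genes), 17 in the authors' deposited value table (24.4%) and 26 after median scaling (32.5%). Because 30 of the 31 were brighter than the level of 0, the 8321 genes above that level were also taken alone, and 32.6% of them were highest at CT16.

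**Figure D1:**
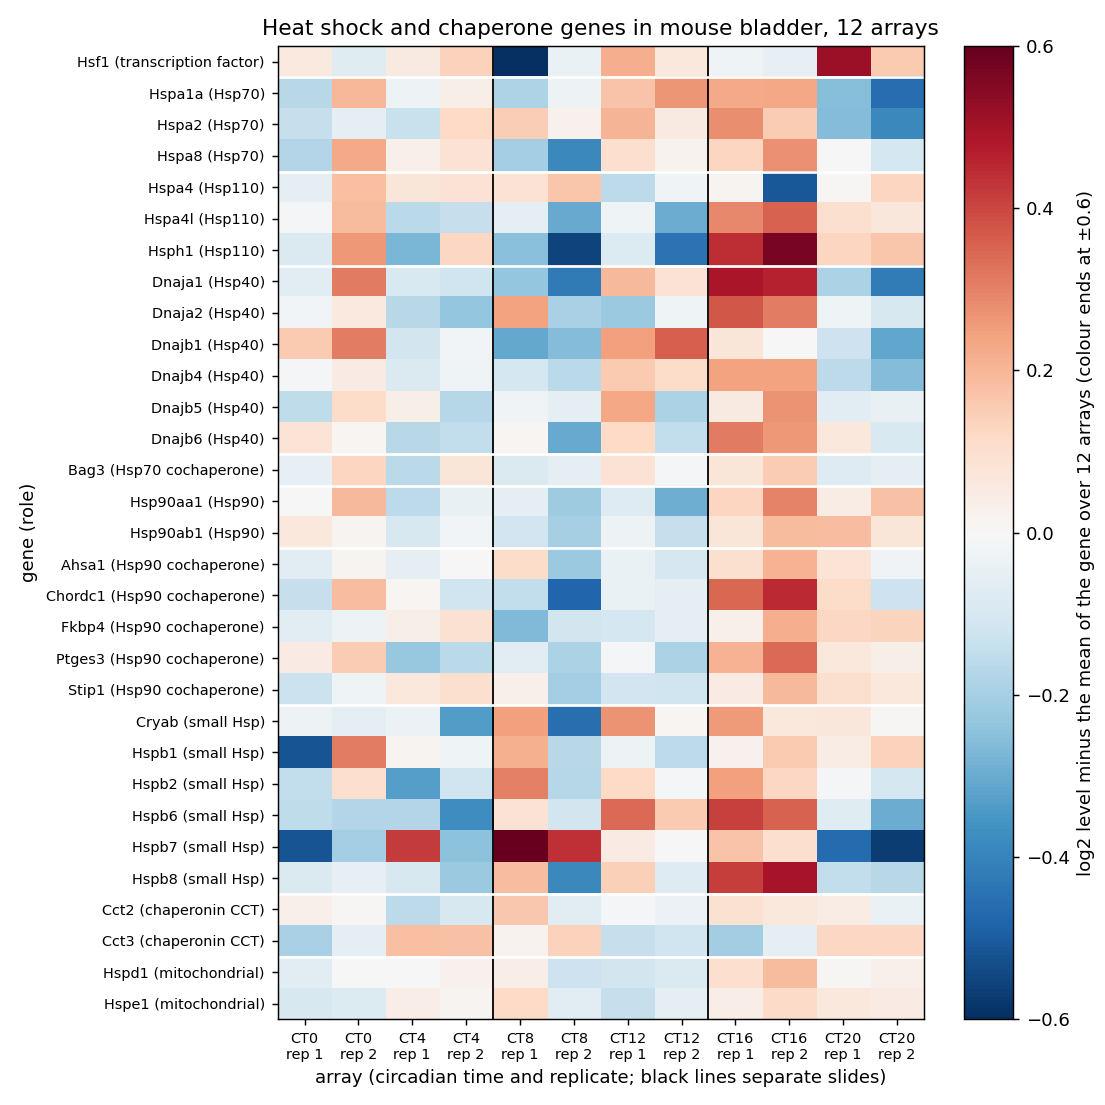
Log2 level of each of the 31 genes on each of the 12 arrays, minus the gene's mean over the arrays, with genes grouped by role and black lines between slides. Warm colours (above the mean) gather in the columns of CT16, and the single darkest blue cell of the top row is Hsf1 in CT8 replicate 1.

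**Figure D2:**
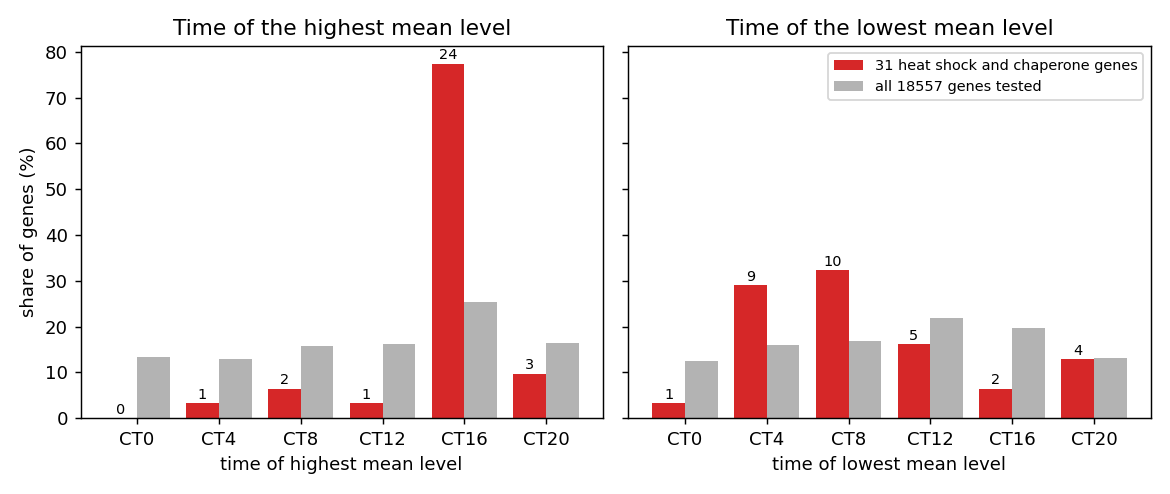
Share of genes (%) whose mean level of 2 arrays was highest (left) or lowest (right) at each circadian time, for the 31 heat shock and chaperone genes beside all 18557 genes tested, with counts of members over the bars. The bar at CT16 on the left stands for 24 of 31 members, beside 25.4% of all genes.

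Mid subjective night was set against mid subjective day. CT16 was higher than CT4 in 28 of 31 genes, beside 52.4% of all genes, and lower in 3 (47.6% of all genes), with a median difference of 0.22 on the log2 scale, against 0.02 over all genes. Both CT16 arrays lay above both CT4 arrays in 24 of 31 (29.7% of all genes), and both below in 3 (26.1% of all genes). No member passed the adjusted threshold in limma, where 0.42% of all genes did. Among the 8321 genes above the level of 0, 62.2% were higher at CT16. At an unadjusted p under 0.05, 12 members were higher at CT16 (11.5% of all genes) and 1, Cct3, was lower (9.39% of all genes). These arrays were on different slides. Marker lists of other cell types also differed between these times: CT16 was higher in 11 of 12 smooth muscle genes, and lower in 6 of 7 leukocyte genes (3 at an unadjusted p under 0.05) and in 4 of 4 erythroid genes. Urothelium genes were higher in 6 of 12 and striated muscle genes in 7 of 12, and the part of these cells in the result was not tested. Scaling mattered here as well: 64% of all genes were higher at CT16 after median scaling, beside 28 of 31 members, and after quantile scaling 22 of 31 members were, beside 52.1% of all genes.

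The families shared this direction to different extents. All 6 Hsp40 genes were higher at CT16 than at CT4 (median difference 0.37), as were all 6 small heat shock genes (median 0.38), all 5 Hsp90 cochaperones (median 0.18), both Hsp90 genes and all 3 Hsp70 genes (median 0.22). Of the 3 Hsp110 genes, Hspa4l and Hsph1 were higher and Hspa4 was lower, by -0.33 on the log2 scale with 1 low array at CT16. Another Hspa4 probe gave -0.67, with -2.13 and -2.08 at CT16 against -1.42 and -1.44 at CT4. The remaining probes of Hspa4 gave -0.25 and, at a very dim mean level of -6.20, 0.27. The 19 tested members that textbooks list as HSF1 targets were all higher at CT16, by 0.04 to 0.61, with a median of 0.19, and 9 of the other 12 were higher, with a median of 0.23. Hsf1 itself was one of the 3 that were not. With quantile scaling 13 of the 19 were higher, and Dnajb1, Hspb1, Fkbp4, Stip1, Hspd1 and Hspe1 were lower at CT16, so that 5 of 6 Hsp40 genes, 5 of 6 small heat shock genes and 3 of 5 Hsp90 cochaperones were higher. Of the 19, 17 were higher in the authors' deposited value table, with Stip1 and Hspe1 lower.

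CT20 minus CT16 compared neighbouring times on 1 slide. CT20 was lower than CT16 in 26 of 31 genes, while 51.3% of all genes were lower, and higher in 5 (48.7% of all genes), and the median difference was -0.23, against -0.01 over all genes. Both CT20 arrays lay below both CT16 arrays in 21 of 31 (27.1% of all genes). No member passed the adjusted threshold in limma (0.00539% of all genes did). At an unadjusted p under 0.05, 11 were lower at CT20 (6.95% of all genes) and Cct3 was higher (7.26% of all genes). All 6 Hsp40 genes, all 6 small heat shock genes and all 3 Hsp70 genes were lower at CT20, with medians of -0.35, -0.41 and -0.54. The small heat shock count was 5 of 6 with normexp, with quantile scaling and in the authors' deposited value table. Of the marker lists, CT20 was lower in 9 of 12 smooth muscle, 9 of 12 striated muscle and 8 of 8 adipocyte genes. It was higher in 7 of 7 leukocyte, 4 of 4 erythroid, 10 of 12 urothelium and 9 of 11 hepatocyte genes, and their part was not tested. Hsp90ab1, Hspb1 and Fkbp4 were nearly level, with differences of 0.00095, -0.0022 and 0.0058. The count of 12 with an unadjusted p under 0.05 was 7 without CT16 replicate 2 and 6 without CT20 replicate 2.

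The other steps within slides were less one-sided. CT12 was higher than CT8 in 19 of 31 genes (48.2% of all genes) and lower in 12 (51.8%). No member passed the adjusted threshold in limma (0% of all genes), and 8 had an unadjusted p under 0.05 (13% of all genes), 6 of them higher at CT12 (5.96% of all genes) and 2 lower (7.06% of all genes). Both CT12 arrays lay above both CT8 arrays in 10 genes (19.7% of all genes) and below in 3 (24.5% of all genes). Without CT8 replicate 2, CT12 was higher in 12 of 31. The 8 became 2 without CT12 replicate 1, 4 without CT12 replicate 2 and 5 without either CT4 array. CT4 was lower than CT0 in 20 of 31 genes (51.5% of all genes) and higher in 11 (48.5%). Of these differences limma called none after adjustment (0.00539% of all genes), and 3 had an unadjusted p under 0.05 (9.18% of all genes), Dnajb1 and Ptges3 lower (5.18% of all genes) and Cct3 higher (4% of all genes) at CT4. Both CT4 arrays lay below both CT0 arrays in 12 genes (20.5% of all genes) and above in 5 (18.1% of all genes). The 3 became 1 without CT4 replicate 1.

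**Figure D3:**
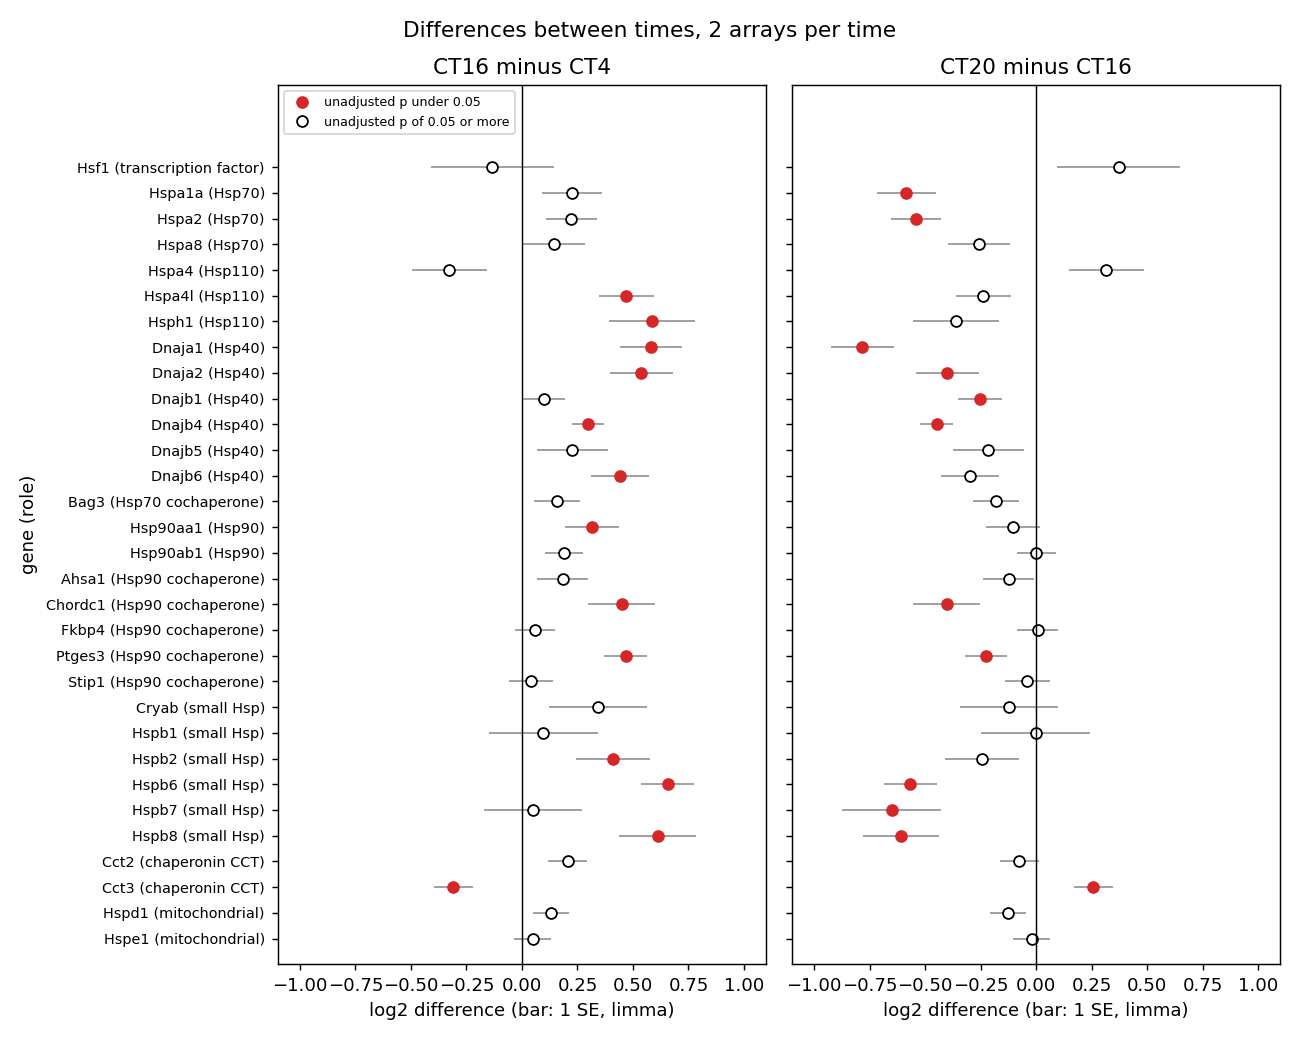
Log2 difference with 1 SE (limma) for each of the 31 genes, CT16 minus CT4 on the left and CT20 minus CT16 on the right, with filled points at an unadjusted p under 0.05. Most points lie right of 0 on the left (28 of 31) and left of 0 on the right (26 of 31), and Cct3, Hspa4 and Hsf1 lie on the opposite side in both.

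Promoters of the list were searched for the heat shock element, to which HSF1 binds. Sequences were those of RefSeq on GRCm38.p6, from 250 bases before to 50 bases after each annotated start. An element of 2 units was GAANNTTC or TTCNNGAA, where N is any base, and each of these reads the same on both strands. An element of 3 units carried a further GAA or TTC after 2 more bases, so that the units alternate, and it contains elements of 2 units that overlap. Hspa8, Hsp90aa1, Hsp90ab1, Hspb2, Cryab and Hsf1 were absent from the set of promoters at hand and were not searched. Of the 31 tested members 25 had a promoter in that set, among them 15 of the 19 that textbooks list as HSF1 targets. An element of 3 units was present in 5 of these 25 (20%), and one of 2 units in 14 (56%). Among all 11771 tested genes with a promoter in the set these shares were 0.561% and 14.2%, and among all 27025 genes of the set they were 0.662% and 17%. A higher share among members was built into the choice of the list, since textbooks list 19 of the 31 as HSF1 targets. A link between the element and the time of the highest level was not tested. The members with 3 units were Hsph1, Chordc1, Dnajb6, and Hspd1 and Hspe1, which share a promoter between them. The 3 promoters below show an element of 3 units, a run of overlapping elements, and a single element of 2 units, with matches in capitals.
Hsph1, chr5:149636266-149636565, minus strand: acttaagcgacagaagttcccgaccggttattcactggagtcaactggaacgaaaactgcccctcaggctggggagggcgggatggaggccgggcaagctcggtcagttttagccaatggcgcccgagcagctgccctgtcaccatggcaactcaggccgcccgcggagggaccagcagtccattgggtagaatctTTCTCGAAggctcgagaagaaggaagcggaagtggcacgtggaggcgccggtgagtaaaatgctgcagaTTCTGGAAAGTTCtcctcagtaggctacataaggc
Chordc1, chr9:18292017-18292316, plus strand: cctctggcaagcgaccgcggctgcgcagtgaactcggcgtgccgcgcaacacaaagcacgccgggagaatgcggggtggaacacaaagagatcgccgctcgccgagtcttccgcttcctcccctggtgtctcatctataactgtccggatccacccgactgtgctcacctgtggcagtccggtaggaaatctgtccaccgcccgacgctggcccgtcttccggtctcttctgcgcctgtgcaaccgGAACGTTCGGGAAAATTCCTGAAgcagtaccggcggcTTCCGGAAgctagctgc
Hspa1a, chr17:34972107-34972406, minus strand: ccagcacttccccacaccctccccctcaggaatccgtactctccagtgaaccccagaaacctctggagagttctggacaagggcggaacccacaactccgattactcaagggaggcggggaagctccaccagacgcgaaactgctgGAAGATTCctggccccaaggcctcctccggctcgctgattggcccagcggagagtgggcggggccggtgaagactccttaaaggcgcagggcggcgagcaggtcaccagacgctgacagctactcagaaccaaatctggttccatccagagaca
In Hsph1 the element TTCTGGAAAGTTC begins 15 bases after the annotated start, and TTCTCGAA begins 54 bases before it. In Chordc1, GAACGTTCGGGAA begins 4 bases before the start and runs on into TTCGGGAAAATTC and GAAAATTCCTGAA, which overlap it. In Hspa1a, GAAGATTC begins 104 bases before the start. The Dnajb1 promoters held no match of either kind. A match describes letters in this window and not binding.

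Hsph1, an exchange factor that resets Hsp70, had the widest wave of the genes with a heat shock element shown above. Its probe, listed in the files under Hsp110 at chr5:148550005-148550064 (mm7), had levels of 3.55 and 3.90 at CT0, 3.37 and 3.77 at CT4, 3.39 and 3.09 at CT8, 3.56 and 3.20 at CT12, 4.09 and 4.21 at CT16, and 3.77 and 3.81 at CT20. The CT16 arrays were the 2 highest of the 12, and the ranges of CT0, CT4, CT8 and CT12 overlapped in part. The fitted peak stood 1.61-fold over the trough (1.41 to 1.85 at 1 SE of the amplitude) at CT19.2 (limma adjusted p = 0.214, unadjusted 0.0159). CT16 exceeded CT4 by 0.58 ± 0.19 on the log2 scale (SE, limma adjusted p = 0.148).

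Hspa4l, another Hsp110 gene, followed a like course at a probe on chr3:40556164-40556223 (mm7). It had levels of 0.16 and 0.36 at CT0, 0.01 and 0.03 at CT4, 0.12 and -0.13 at CT8, 0.14 and -0.13 at CT12, 0.46 and 0.52 at CT16, and 0.27 and 0.24 at CT20. Both CT16 arrays lay above all others. Its fold was 1.35 (1.24 to 1.47) at CT18.9 (limma adjusted p = 0.215), and CT16 exceeded CT4 by 0.47 ± 0.12 (SE, limma adjusted p = 0.0999).

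Chordc1, a zinc-binding partner of Hsp90, was measured at chr9:18165920-18165979 (mm7). Its levels were 1.29 and 1.62 at CT0, 1.45 and 1.31 at CT4, 1.28 and 0.96 at CT8, 1.39 and 1.38 at CT12, 1.78 and 1.88 at CT16, and 1.54 and 1.31 at CT20. CT16 again held the 2 highest arrays and CT8 the lowest. The difference CT16 minus CT4 was 0.45 ± 0.15 (SE, limma adjusted p = 0.154), and CT20 minus CT16 was -0.40 ± 0.15 (SE, limma adjusted p = 0.301). The 24 h wave was 1.35-fold (limma adjusted p = 0.344).

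The Hsp90 pair had waves of 1.23-fold and 1.29-fold, beside a median of 1.22-fold over the list. Hsp90ab1, the constitutive cytosolic Hsp90, had levels of 6.27 and 6.23 at CT0, 6.11 and 6.19 at CT4, 6.09 and 6.01 at CT8, 6.18 and 6.07 at CT12, 6.28 and 6.40 at CT16, and 6.40 and 6.28 at CT20. CT16 and CT20 overlapped each other and lay above every other array. The arrays of these times are those of the third slide, so slide and time cannot be told apart in this gap. Within that slide, CT20 minus CT16 was 0.00095. The wave was 1.23-fold (1.17 to 1.29) at CT19.5, with limma adjusted p = 0.134 and an unadjusted p of 0.00445. With slide entered as a fixed block, the wave had limma adjusted p = 0.714 and an unadjusted p of 0.399. A dimmer probe of the gene gave 1.17-fold with a peak at CT4.1, so the time of the peak differed between probes. The chosen probe is at chr17:43697681-43697740 and the other at chr17:43698958-43699017 (mm7).

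Hsp90aa1, the inducible Hsp90 (chr12:108209304-108209363, mm7), had levels of 5.61 and 5.81 at CT0, 5.45 and 5.57 at CT4, 5.56 and 5.39 at CT8, 5.53 and 5.32 at CT12, 5.74 and 5.91 at CT16, and 5.65 and 5.79 at CT20. CT16 overlapped CT0 and CT20, and lay above CT4, CT8 and CT12. Its wave was 1.29-fold (1.19 to 1.39) at CT19.8 (limma adjusted p = 0.240, unadjusted 0.0214).

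Among the Hsp90 cochaperones, Ptges3 encodes p23, which stabilises the closed form of Hsp90. At chr10:127578029-127578088 (mm7) it had levels of 3.06 and 3.17 at CT0, 2.79 and 2.85 at CT4, 2.95 and 2.82 at CT8, 3.003 and 2.82 at CT12, 3.22 and 3.35 at CT16, and 3.08 and 3.05 at CT20. The CT16 arrays lay above all others and CT4 was low in both arrays. CT16 exceeded CT4 by 0.47 ± 0.10 (SE, limma adjusted p = 0.0679). That difference passed with normexp background correction (0.45, limma adjusted p = 0.0436) and in the authors' deposited value table (0.39, limma adjusted p = 0.0488). A second, dimmer probe of the gene had 1.35 and 1.41 at CT16, against 1.40 and 1.24 at CT4, a difference of 0.06. The wave was 1.30-fold at CT18.4 (limma adjusted p = 0.205). Ahsa1, an activator of the Hsp90 ATPase, Fkbp4, a steroid receptor immunophilin, and Stip1, the bridge between Hsp70 and Hsp90, had waves of 1.11-fold, 1.18-fold and 1.0998-fold.

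Among the Hsp40 genes, Dnaja1 had the largest step. Dnaja1, a farnesylated Hsp40 that works with Hspa8, was measured at chr4:40868736-40870191 (mm7). Its levels were 3.44 and 3.82 at CT0, 3.42 and 3.40 at CT4, 3.28 and 3.09 at CT8, 3.71 and 3.60 at CT12, 4.00 and 3.98 at CT16, and 3.32 and 3.09 at CT20. Both CT16 arrays exceeded all others, and CT8 and CT20 held the lowest. CT20 minus CT16 was -0.78 ± 0.14 (SE, limma adjusted p = 0.143), the largest step of the list in either direction. CT16 exceeded CT4 by 0.58 ± 0.14 (SE, limma adjusted p = 0.0862). Any difference between the times had limma adjusted p = 0.154, and the 24 h wave limma adjusted p = 0.566. The other probes of the gene were also highest at CT16, at 2.73 and 2.64 on one and 0.22 and 0.16 on the other.

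Dnajb4, an Hsp40 known from heart and skeletal muscle (chr3:152085488-152085547, mm7), had levels of 2.23 and 2.29 at CT0, 2.15 and 2.22 at CT4, 2.14 and 2.08 at CT8, 2.40 and 2.35 at CT12, 2.48 and 2.48 at CT16, and 2.09 and 1.98 at CT20. CT12 and CT16 lay above all other times without overlap. CT20 minus CT16 was -0.45 ± 0.07 (SE, limma adjusted p = 0.138), and any difference had limma adjusted p = 0.148.

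Dnajb1, the main inducible Hsp40 of the cytosol, did not share the peak at CT16. At chr8:82190188-82190247 (mm7) its levels were 4.82 and 4.97 at CT0, 4.55 and 4.64 at CT4, 4.35 and 4.40 at CT8, 4.91 and 5.02 at CT12, 4.73 and 4.66 at CT16, and 4.54 and 4.35 at CT20. It was high at CT0 and CT12, 12 h apart, and low at CT8 and CT20. The second probe of the gene had 0.91 and 0.88 at CT0, 0.62 and 0.58 at CT8, and 1.09 and 1.19 at CT12. Its CT16 minus CT4 was -0.09, against 0.10 on the brighter probe. The 24 h wave was 1.08-fold (limma adjusted p = 0.930). Any difference between the times had the smallest p of the list, 0.00185 (limma adjusted p = 0.130). Terms of 12 h beyond the 24 h wave, tested after these values were seen, had an amplitude of 0.30 ± 0.04 on the log2 scale (SE, limma adjusted p = 0.251, unadjusted 0.000126). For those terms limma called 0 of 31 members (0% of all genes), and 7 of 31 had an unadjusted p under 0.05 (11% of all genes). Within slides, CT12 exceeded CT8 by 0.59 ± 0.10 (SE, limma adjusted p = 0.219), CT4 minus CT0 was -0.30 ± 0.10 (limma adjusted p = 0.483), and CT20 minus CT16 was -0.25 ± 0.10 (limma adjusted p = 0.309).

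Immediate-early genes, which respond within minutes to stimulation or handling, were read beside Dnajb1. Of 12 tested, 7 had an unadjusted p under 0.05 for any difference between the times (19.1% of all genes), and none passed after adjustment in limma. Their summed level was 6.74 and 7.11 at CT0, 6.42 and 6.45 at CT4, 5.90 and 6.49 at CT8, 6.94 and 7.18 at CT12, 6.51 and 7.22 at CT16, and 6.17 and 6.72 at CT20. The sum, which bright genes such as Junb dominate, was lowest in CT8 replicate 1 and highest in CT16 replicate 2. With each gene taken minus its own mean over the arrays, the mean of the 12 was highest at CT0 (0.51 and 0.74) and CT12 (0.51 and 0.45). It was -0.07 and -0.21 at CT4, -1.25 and -0.47 at CT8, -0.23 and 0.33 at CT16, and -0.43 and 0.11 at CT20. The part of immediate-early genes in the course of Dnajb1 was not tested.

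Hspa1a, the stress-inducible Hsp70, differed most between CT16 and CT20. Its probe at chr17:33066911-33066970 (mm7) had levels of 3.86 and 4.23 at CT0, 3.99 and 4.06 at CT4, 3.84 and 3.99 at CT8, 4.20 and 4.29 at CT12, 4.25 and 4.26 at CT16, and 3.77 and 3.57 at CT20. CT20 was the lowest in both arrays, and CT12 and CT16 overlapped, with means of 4.24 and 4.25. CT20 minus CT16 was -0.59 ± 0.13 (SE, limma adjusted p = 0.177). The other 3 Hspa1a probes gave CT16 minus CT4 of 0.20, 0.04 and -0.46, against 0.23 on this probe. On the probe with 0.04, CT12 was at 2.21 and 2.43, above CT16 at 2.17 and 2.13. On the probe with -0.46, CT12 was at -1.37 and -1.18, above CT16 at -1.96 and -1.81. The CT12 and CT16 arrays overlapped on the probe with 0.20. The wave was 1.23-fold (limma adjusted p = 0.585) and any difference had limma adjusted p = 0.206. Hspa1a and Hspa1b are near-identical neighbours, and signal of these probes may come from either gene. Probe sequences were not at hand, so this was not tested. Their promoters, with 296 of 300 bases the same, do not bear on the match of the probes.

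Hspa2, an Hsp70 best known from the testis (chr12:74364884-74364943, mm7), had levels of 1.67 and 1.74 at CT0, 1.67 and 1.92 at CT4, 1.95 and 1.83 at CT8, 2.01 and 1.86 at CT12, 2.08 and 1.96 at CT16, and 1.54 and 1.42 at CT20. CT20 lay below every other array. CT20 minus CT16 was -0.54 ± 0.11 (SE, limma adjusted p = 0.165), and the wave was 1.30-fold at CT10.9 (limma adjusted p = 0.299). Hspa8, the constitutive Hsp70, ranged from 5.93 in CT8 replicate 2 to 6.60 in CT16 replicate 2, with a wave of 1.17-fold (limma adjusted p = 0.647). A second Hspa8 probe, singled out after its values were seen, was at 4.81 and 4.88 at CT16 and at 4.17 and 4.15 at CT8. The files place both Hspa8 probes on chromosome 5 (mm7), whereas RefSeq has the gene on chromosome 9, so their identity is less certain.

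Small heat shock genes split into different courses. Hspb6, also called Hsp20, which takes part in smooth muscle relaxation, had the smallest 24 h p of the list. At chr7:27495589-27495732 (mm7) its levels were 1.39 and 1.37 at CT0, 1.37 and 1.17 at CT4, 1.63 and 1.43 at CT8, 1.89 and 1.70 at CT12, 1.96 and 1.90 at CT16, and 1.47 and 1.25 at CT20. CT12 and CT16 lay above all other times, and CT4 and CT20 held the lowest arrays. The wave was 1.53-fold (1.41 to 1.67) at CT13.8 (limma adjusted p = 0.0881, unadjusted 0.00131). CT16 exceeded CT4 by 0.66 ± 0.12 (SE, limma adjusted p = 0.0602), and CT20 minus CT16, on 1 slide, was -0.57 ± 0.12 (limma adjusted p = 0.169). The first difference passed under 4 alternatives (limma adjusted p = 0.0365 with normexp, 0.0413 in the authors' deposited value table, 0.0444 with the brightness filter required of all 12 arrays, and 0.0456 with the replicate number as a block). With any 1 array left out it did not pass. The smooth muscle genes, whose summed level is given above, were higher at CT16 than at CT4 in 11 of 12, with a median of 0.11 (log2), and none of the 12 had an unadjusted p under 0.05 there.

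Hspb7, a small heat shock protein of heart and skeletal muscle, had the widest wave and another phase. Its probe at chr4:140802881-140802940 (mm7) had levels of -0.25 and 0.06 at CT0, 0.68 and 0.02 at CT4, 1.08 and 0.70 at CT8, 0.32 and 0.26 at CT12, 0.44 and 0.36 at CT16, and -0.20 and -0.31 at CT20. CT8 was highest, CT20 and CT0 replicate 1 were lowest, and the CT4 arrays differed by more than most times did. The wave was 1.88-fold (1.61 to 2.19) at CT9.07 (limma adjusted p = 0.147), and a second probe gave 1.69-fold at CT9.09. Of 12 striated muscle genes tested, 8 had an unadjusted 24 h p under 0.05 (66.7%, beside 15.6% of all genes). Their peaks were at CT3.56 (Tnni1), CT4.35 (Mb), CT7.99 (Myh7), CT9.83 (Ckm), CT9.84 (Tcap), CT10.1 (Acta1), CT14.3 (Tnnc1) and CT19.9 (Myh2). Of these genes 1, Tcap, a sarcomere cap protein, passed in limma with 12.1-fold at CT9.84 (adjusted p = 0.0446). The summed level of the 12 genes, which the brightest dominate, was 6.92 and 6.88 at CT20, within a range of 6.75 to 7.40 over the 12 arrays. With each gene taken minus its own mean over the arrays, their mean was lowest at CT20 (-0.72 and -0.56). That mean was 0.76 and -0.31 at CT4, and -0.07 and 0.60 at CT8. The part of striated muscle genes in the course of Hspb7 was not tested.

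The other small heat shock genes gave no 24 h p under 0.05. Hspb8, which works with Bag3 in clearing damaged muscle proteins, was at 3.85 and 3.93 at CT16 and between 3.05 and 3.62 on all other arrays, with CT16 minus CT4 at 0.61 ± 0.17 (SE, limma adjusted p = 0.113). Hspb2 and Cryab, neighbours on chromosome 9, had waves of 1.22-fold and 1.26-fold. Hspb1, the Hsp27 of many tissues, differed between the 2 CT0 arrays, at 4.77 and 5.59, by more than between the means of any 2 times, and its wave was 1.07-fold. Bag3 had a wave of 1.08-fold.

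Cct3, a subunit of the chaperonin that folds actin and tubulin, ran opposite to most of the list. At chr3:88425513-88425572 (mm7) it had levels of 1.22 and 1.36 at CT0, 1.59 and 1.59 at CT4, 1.43 and 1.55 at CT8, 1.28 and 1.30 at CT12, 1.21 and 1.36 at CT16, and 1.54 and 1.54 at CT20. CT4 was the highest time, and CT16 lay below it in both arrays. CT16 minus CT4 was -0.31 ± 0.09 (SE, limma adjusted p = 0.114), CT4 minus CT0 was 0.30 ± 0.09 (limma adjusted p = 0.483) and CT20 minus CT16 was 0.26 ± 0.09 (limma adjusted p = 0.270). Cct2, a subunit of the same ring, was between 5.34 and 5.66 with a wave of 1.08-fold, and CT16 minus CT4 was 0.21. The mitochondrial Hspd1 and Hspe1 had waves of 1.08-fold and 1.03-fold.

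Hsf1, the factor that drives the heat shock response, was not among the genes highest at CT16. At chr15:76582655-76582715 (mm7) its levels were 2.85 and 2.72 at CT0, 2.84 and 2.93 at CT4, 1.77 and 2.75 at CT8, 3.004 and 2.85 at CT12, 2.76 and 2.74 at CT16, and 3.30 and 2.94 at CT20. CT8 replicate 1 stood alone as the low array, and the other 11 lay between 2.72 and 3.30. The fitted wave was 1.40-fold (limma adjusted p = 0.533), and 1.099-fold without that array. The other Hsf1 probes had waves of 1.02-fold and 1.004-fold and levels of 1.85 and -1.95 in that array. This is transcript level and says nothing of HSF1 protein activity.

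**Figure D4:**
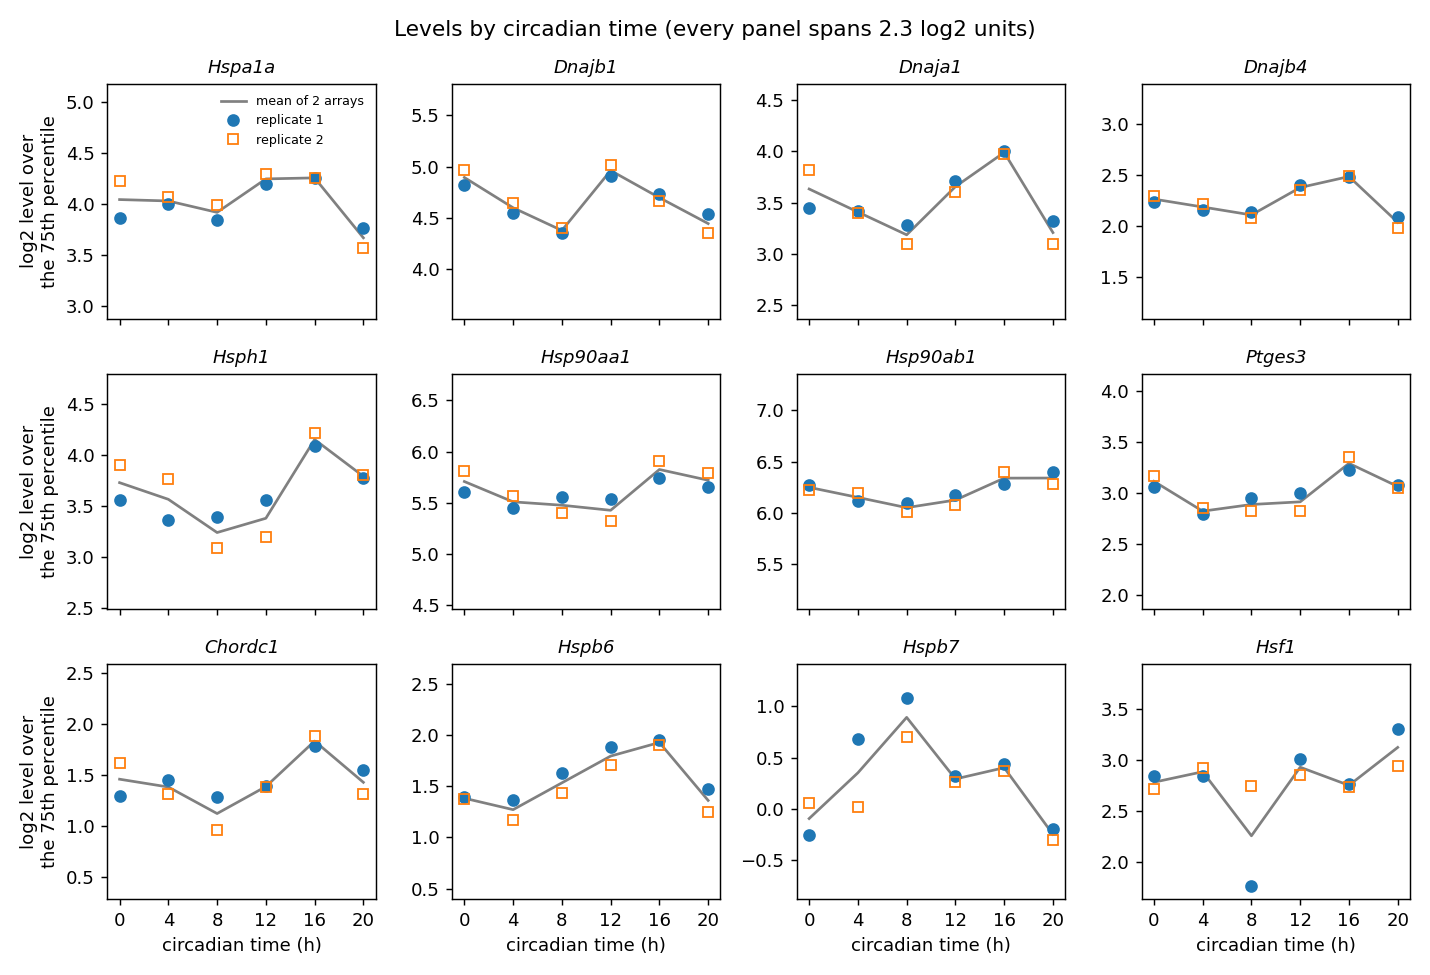
Log2 level over the array's 75th percentile at each circadian time (h) for 12 named genes, with replicate 1 as filled circles, replicate 2 as open squares and a line through the mean of 2 arrays. Dnaja1, Hsph1, Chordc1 and Ptges3 are highest at CT16, Dnajb1 at CT12 and CT0, and Hspb7 at CT8.

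A further 57 chaperone and cochaperone genes outside the list, among them the remaining chaperonin and prefoldin subunits, Bag and Dnajc genes, were read beside it, and 54 were tested. None passed the 24 h or the any-difference test after adjustment in limma, while 11 (20.4%, beside 15.6% of all genes) and 9 (16.7%, beside 19.1% of all genes) had an unadjusted p under 0.05. CT16 was higher than CT4 in 33 of 54 (61.1%, beside 52.4% of all genes), with a median of 0.09. Most of the 54 were brighter than the level of 0, and among the 8321 genes above that level the share was 62.2%. At an unadjusted p under 0.05, 6 of the 54 were higher and 5 lower. The 4 with the smallest 24 h p were Dnajc5, Fkbp5, St13 and Hspa12a. Dnajc5, the cysteine string protein of secretory vesicles, had 1.31-fold at CT5.13 (limma adjusted p = 0.0692). Its levels were 2.81 and 2.76 at CT16, its lowest time, against 3.23 and 3.17 at CT8, its highest. Fkbp5, a glucocorticoid-induced immunophilin that binds Hsp90, had 2.50-fold (2.04 to 3.05) at CT12.3 (limma adjusted p = 0.119). St13, the Hsp70-interacting protein Hip, had 1.27-fold at CT19.2 (limma adjusted p = 0.129), and Hspa12a, a distant Hsp70 relative, 1.77-fold at CT7.64 (limma adjusted p = 0.138).

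The cold-inducible RNA-binding genes Cirbp and Rbm3 were read beside the heat shock genes because they are known to respond to lower body temperature. Cirbp had levels of 3.99 and 3.43 at CT0, 3.94 and 3.78 at CT4, 4.43 and 4.69 at CT8, 4.00 and 4.12 at CT12, 3.51 and 3.44 at CT16, and 3.45 and 3.88 at CT20. Its highest arrays were those of CT8, where 10 of the 31 heat shock and chaperone genes and 16.9% of all genes were lowest. The wave was 1.79-fold at CT7.90 (limma adjusted p = 0.165). Rbm3 had levels of 4.37 and 4.15 at CT4, 5.09 and 5.11 at CT8, and 4.75 and 4.71 at CT16, with a wave of 1.54-fold at CT10.8 (limma adjusted p = 0.237).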

How the data were processed

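RNA of 12 bladder samples was read from 1-colour Agilent arrays. Per the file headers, the deposited scanner files give intensity per spot from Agilent Feature Extraction 10.5.1.1, as processed signal after background subtraction and detrending within the array. The authors also deposited a table of log2 values for the same arrays. Its normalisation is not given in the sources used here and the submitters' processing notes name R 2.8.1. It served as an alternative.

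Outlier spots were dropped from 43379 non-control spots, log2 signals were averaged per probe, and 271 of 41174 probes lacking a value on any array were left out. Each array's 75th percentile was subtracted. One probe per gene name, of highest mean level, stands for a gene, and 18557 genes well above background on at least 4 of 12 arrays were tested. Names were matched as written in the files. Probes under the older symbols Hspa9a (1.02-fold and 1.09-fold) and Dnajb10 (1.20-fold) fell outside the rule. Coordinates are on mm7, with no annotation of that build at hand, so exons and UTRs were not assigned.

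limma 3.58.1 (R 4.3.3) fitted cosine and sine terms of 24 h (9 residual degrees of freedom) and a 1-way model over the 6 times (6 residual degrees of freedom) with 4 contrasts, 2-sided. Folds are fitted peak over trough. Adjusted p-values are Benjamini-Hochberg's, taken across every gene tested. The fits were tested on simulated data with 200 waves. Array values are printed for members with an unadjusted p under 0.05 in the 24 h or 1-way test (14 at most, smallest first) and for Hspa1a, Hsf1 and Hsp90aa1. The members and lists were chosen with earlier results of these data known. Same-numbered arrays of different times did not deviate together throughout (correlation -0.20 to 0.44, median 0.17, over 15 pairs of times). They were not treated as paired, although the mean correlation was positive at 5 of the 6 times. Alternatives covered background correction, scaling, the value table, the filter, other probes, slide and replicate blocks, and leaving out each array. The number of arrays limits the precision.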

Additional observations from a re-analysis of the deposited data

How the results depend on the processing

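In no alternative did a member pass the adjusted threshold in limma for the 24 h wave, any difference, the 12 h terms, CT4 minus CT0, CT12 minus CT8 or CT20 minus CT16. For CT16 minus CT4 the count of 0 (0.42% of all genes) became 2 with normexp (Hspb6 and Ptges3), where 2.75% of all genes passed. The count was 2 in the authors' table (Hspb6 and Ptges3), and 1 with the filter at all 12 arrays (Hspb6). With the replicate number as a block it was 1 (Hspb6, adjusted p = 0.0456), and no other call changed. The cause was not tested. At an unadjusted p under 0.05, the 24 h count of 8 was 5 with slide entered as a random effect (correlation 0.15), all among the 8, and 10 with slide as a fixed block, of which 3 were among the 8 (Hspb6, Hspb7 and Hspa2). Hsp90ab1, Ptges3, Hsph1, Hspa4l and Hsp90aa1 were lost there, with unadjusted p from 0.25 to 0.74. Median scaling gave 4 for the 12 h terms and 5 for CT12 minus CT8. Leaving out each array in turn gave 5 to 10 members at an unadjusted p under 0.05 for the 24 h wave (5 without CT8 replicate 2), 8 to 16 for any difference (8 without CT16 replicate 2), and 4 to 11 for the 12 h terms (11 without CT8 replicate 1, 4 without CT16 replicate 2 or CT20 replicate 2). It gave 9 to 15 for CT16 minus CT4, 1 to 4 for CT4 minus CT0, 2 to 9 for CT12 minus CT8 and 6 to 14 for CT20 minus CT16. Members higher at CT12 than at CT8 numbered 12 to 27, members higher at CT16 than at CT4 26 to 28, and members highest at CT16 19 to 25. The share of all genes is not given beside the counts with slide blocks or with an array left out. A shift of the members cannot be told from a shift of the whole array in those counts. CT16 minus CT4 turned to -0.022 for Dnajb1 with quantile scaling, and for Hspb7 it ranged from -0.28 (without CT4 replicate 2) to 0.38 with 1 array left out. CT20 minus CT16 of Hsp90ab1, nearly level as reported, was -0.019 with median scaling and from -0.058 (without CT16 replicate 1) to 0.060 with 1 array left out, and also negative without CT20 replicate 1. The phase reversed on another probe for Hsp90ab1 (1.17-fold) and Hsf1 (1.004-fold). With slide as a fixed block, CT16 minus CT4 could not be estimated, and the 24 h wave rested only on the steps within slides. The fitted 24 h folds of Dnajb1, Dnaja1 and Hspa1a were then 2.22, 2.74 and 2.09 (limma adjusted p = 0.118, 0.196 and 0.225). That of Hspb7 was 2.70 at CT8.15 (limma adjusted p = 0.313). In this fit 21 of 31 peaks lay between CT12 and CT24, and the share of all genes is not given beside it. A random slide could not be estimated in the 1-way model, whose times are nested in slides.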
